A study of Mus musculus with 107 samples.

Results

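EMT6 is a mouse breast cancer cell line, and the EMT6 model is this 1 line implanted under the skin of the right flank of female BALB/cAnNCrlCrlj mice that were 7 weeks old. The comparison described here was between 3 tumors of mice given lenvatinib (LEN) and 3 tumors of mice left untreated (NT). LEN was given by mouth at 10 mg/kg once a day for 7 days, from a tumor volume of about 100 mm3, and both groups were sampled on day 8. All 3 columns of each group were taken, which is 6 of the 107 tumors of the series, over all 50686 genes of the table. A further 3 EMT6 tumors, collected at about 100 mm3 without treatment (treatment-naive), are given as values only, in a few places. Below, rose and fell refer to LEN against NT tumors of day 8, and not to a change from the treatment-naive tumors. RNA of whole tumors was sequenced after depletion of ribosomal RNA, so each value pools cancer cells with the blood vessels, fibroblasts and leukocytes of the host. Expression was deposited as TPM, in which transcript counts are scaled by length and to the same total in every tumor, so that sequencing depth cannot be read from it. The labels and methods describe the tumors as coming from different mice, and the p-values below measure only the spread between these tumors.

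LEN inhibits receptor tyrosine kinases, among them the receptors of vascular endothelial growth factor (VEGF) and fibroblast growth factor (FGF), PDGFRA, KIT and RET. Growing tumors depend on VEGF from cancer and stromal cells, which acts on endothelial cells to make and hold open new vessels. VEGF signaling is also known to shape which leukocytes enter a tumor and how they act, and interferons are known to raise the genes by which cells present antigen to T cells.

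The libraries of the 2 groups differed in composition. The share of TPM in protein-coding genes was 57.2% to 61.0% in NT tumors and 62.8% to 66.6% in LEN tumors, without overlap between the groups, while mitochondrial genes took between 4.13% and 4.65% in all 6. Pearson's r of log2(TPM + 1) between pairs of these tumors lay between 0.948 and 0.965. The mesenchymal intermediate filament gene Vim was at 2516 to 2940 TPM in NT and 3211 to 3421 TPM in LEN tumors, and the epithelial keratin gene Krt8 at 251 to 301 and 315 to 337 TPM. Of the other epithelial markers, Epcam, Cldn3, Cldn4, Cldn7 and Ocln were under the filter on low values, and Esr1 was at 12.2 to 14.5 TPM. Keratins and other genes of skin stood out in a single tumor, LEN replicate 4, with Krt5 at 44.7, Krt14 at 101, Krt17 at 41.0 and Krtdap at 36.5 TPM, against at most 2.05, 10.8, 1.71 and 0.53 TPM in the other 5 tumors. The summed level of 12 skeletal muscle markers was 42.6 to 52.3 TPM in NT and 66.3 to 95.7 TPM in LEN tumors. What part skin or muscle has in the differences below was not tested.

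After 7 days of LEN, genes for antigen presentation and interferon-inducible GTPases were higher in EMT6 tumors, and hemoglobin genes were lower. Of the vessel-related genes listed that passed the test, Kcne3 and Gpihbp1 were lower and Aqp1 and Des higher. Genes whose TPM averaged 1 or more over the 6 tumors were tested, 15503 in all, and 142 (0.916%) passed an adjusted p of 0.05 in limma on log2(TPM + 1), of which 127 (0.819%) rose and 15 (0.0968%) fell. In all 142, the 3 NT and the 3 LEN tumors did not overlap. Without adjustment, 1940 genes (12.5%) were higher and 681 (4.39%) lower at a limma p under 0.05, and the groups did not overlap for 2550 genes (16.4%) that were higher and 1089 (7.02%) that were lower. These shares are the background for the counts of each gene group. The median difference over all 15503 genes was 0.04 on the log2 scale.

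The number of calls was fragile, and the split between directions more so. Most adjusted p-values were close to the threshold, above 0.02 for 133 of the 142 genes. After rescaling each tumor over its protein-coding genes, which shifted the median difference of all genes by -0.11, 17 genes passed, 11 lower and 6 higher. After rescaling by the upper quartile, 15 passed, 11 lower and 4 higher. All 127 genes that rose kept a positive difference under both, and 117 and 116 of them had an adjusted p under 0.1. Leaving out a single tumor left 20 calls without NT replicate 1, 9 without NT replicate 2 and 13 without NT replicate 4. It left 10 without LEN replicate 2, 28 without LEN replicate 3 and 10 without LEN replicate 4. All 142 genes kept their direction and an unadjusted p under 0.05 in each of these 6 fits. With the spread estimated over all 72 day 8 tumors of the series, 585 genes passed, 189 lower and 396 higher, including 94 of the 142. This spread is mostly that of other models, and it includes 4T1 LEN replicate 4, a tumor of unusual composition described below. A call can thus be gained or lost through the spread of other models. Beside the gene groups given below, that fit lost the calls of Des (adjusted p = 0.104), Zbp1 (adjusted p = 0.119), Irf7 (adjusted p = 0.0552), Gbp5 (adjusted p = 0.102), C1ra (adjusted p = 0.122), C3 (adjusted p = 0.208), Tgtp2 (adjusted p = 0.0770) and Snora65 (adjusted p = 0.0780). Among the genes named individually, those that passed under both rescalings were Snora7a, Hba-a1, Hba-a2, Hbb-bs, Kcne3, Igfbp3, Gpihbp1, C1ra, AA467197 and Rhox4a. Of these, Snora7a was listed at 0 in all LEN tumors and Rhox4a passed the filter through its LEN values alone, so their calls add nothing to the other 8. Fold changes are on the log2(TPM + 1) scale unless a ratio of mean TPM is given, on which changes of weakly expressed genes come out too small.

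**Figure D1:**
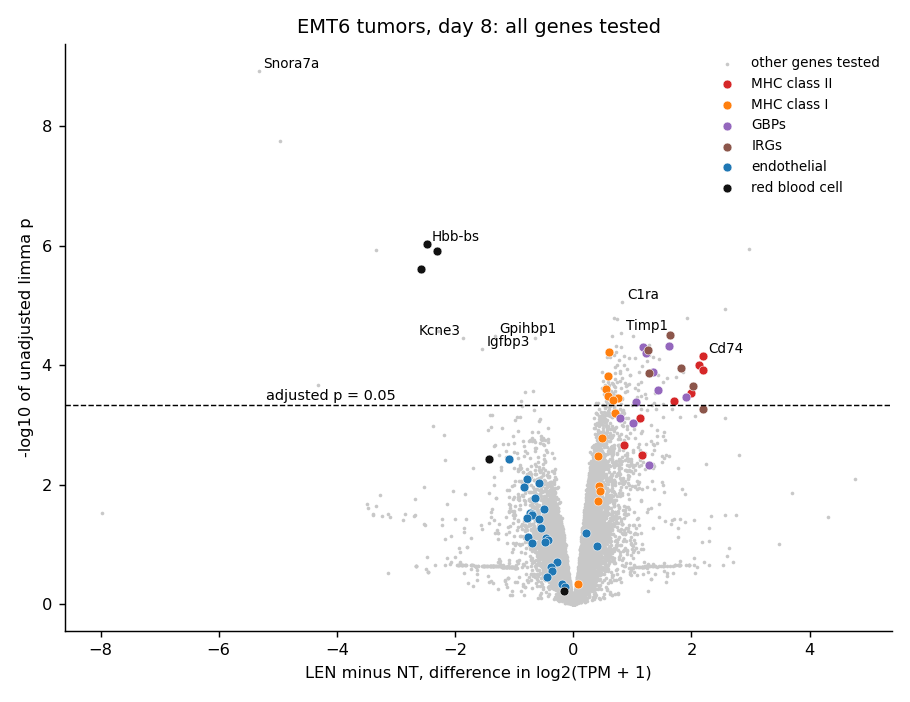
Difference between LEN and NT tumors (x axis, log2(TPM + 1)) against -log10 of the unadjusted limma p (y axis) for the 15503 genes tested in EMT6, 1 point per gene, with gene groups in color and the adjusted p of 0.05 as a dashed line. The 127 genes that rose lie above the line on the right and the 15 that fell on the left, where hemoglobin genes stand apart, while the endothelial genes on the left stay under the line.

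Blood vessels are the tissue that LEN is aimed at, and the endothelial genes were lower in most cases without passing the test singly. Of 27 endothelial surface and junction genes, 25 passed the filter, 23 of them had a negative difference, 11 had an unadjusted p under 0.05 and 0 passed after adjustment. Their median difference was -0.54, against 0.04 for all genes. With the spread of all 72 tumors, 7 of the 25 passed, all lower. The counts of 11 and of 7 include Pcdh12, which averaged under 1 TPM in LEN tumors and was tested through its NT values. Its place in them is a value only. Their summed TPM was 227, 251 and 365 in the NT tumors and 224, 165 and 219 in the LEN tumors, so NT replicate 4 was high and NT replicate 1 was within 4 TPM of the highest LEN tumor. In bulk tumors, fewer endothelial cells and less RNA per endothelial cell cannot be told apart.

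The MVD gene score, built as a measure of microvessel density, is the mean of log2(TPM + 1) over the endothelial genes Kdr, Tek, Cdh5, Eng, Sparcl1 and Pcdh12. It was 2.60, 2.91 and 3.38 in the NT tumors and 2.53, 2.28 and 2.45 in the LEN tumors. The groups did not overlap, but the NT tumor with the lowest score stood only slightly above the LEN tumor with the highest. The difference was -0.54 (SE 0.21, 95% interval -1.03 to -0.05), with a limma p of 0.0341 and an exact two-sided permutation p of 0.1, the smallest that 3 tumors against 3 allow. Without NT replicate 4 the difference was -0.34, with a limma p of 0.1, and the p was also above 0.05 without NT replicate 2 or without any of the LEN tumors. In the treatment-naive tumors the score was 3.43, 3.43 and 4.18, above every NT tumor of day 8. Protein-coding genes took 43.5% to 45.9% of the TPM in the treatment-naive tumors, against 57.2% to 61.0% in NT tumors. Levels of the 2 sets are therefore not on a like scale.

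The 6 genes of the score differed in how clearly they separated the groups. Cdh5, the cadherin of endothelial junctions, was at 12.1, 15.4 and 19.9 TPM in NT and 11.4, 9.65 and 11.02 TPM in LEN tumors, a difference of -0.50 (SE 0.18, adjusted p = 0.224). Pcdh12, a protocadherin of endothelial cells, was at 1.82, 2.24 and 2.92 TPM against 1.11, 0.77 and 0.85 TPM (-0.79, SE 0.22, adjusted p = 0.139). Sparcl1, a matrix protein made by vessels, was at 8.93, 15.9 and 20.0 TPM against 7.76, 7.07 and 9.82 TPM (-0.73, SE 0.27, adjusted p = 0.238), with an overlap of the groups. Eng, a TGF-beta co-receptor, and Tek, the receptor of angiopoietins, overlapped as well, with differences of -0.28 (adjusted p = 0.521) and -0.37 (adjusted p = 0.557). Pecam1, which encodes CD31, was at 13.1, 16.4 and 23.6 TPM in NT and 17.8, 10.95 and 17.01 TPM in LEN tumors (-0.19, SE 0.25, adjusted p = 0.733), and the sign of its difference changed without NT replicate 4 (0.024) or LEN replicate 3 (0.015). The sialomucin gene Emcn had the lowest p of the endothelial list, at 6.08, 8.01 and 11.7 TPM against 4.23, 2.31 and 3.81 TPM (-1.09, SE 0.26, adjusted p = 0.106).

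Of the receptors that LEN inhibits, 7 of 10 passed the filter and 0 passed the test, with a median difference of -0.01. The genes of the 3 VEGF receptors were the ones lower at an unadjusted p under 0.05, and no test compared them with the other receptors. Kdr, which encodes VEGFR2 and is also a gene of the score, was at 4.67, 5.59 and 9.43 TPM in NT and 4.16, 3.72 and 3.74 TPM in LEN tumors (-0.59, SE 0.23, adjusted p = 0.259). Flt4, which encodes VEGFR3 of lymphatic and sprouting endothelium, was at 1.30, 2.46 and 2.28 TPM against 0.76, 0.52 and 0.57 TPM (-0.88, SE 0.25, adjusted p = 0.142). Flt1, which encodes VEGFR1, was at 8.09, 15.0 and 11.8 TPM against 8.09, 3.71 and 7.58 TPM, so that the highest LEN tumor equalled the lowest NT tumor (-0.78, SE 0.30, adjusted p = 0.254). None of the 3 passed the test in these 6 tumors, whereas with the spread of all 72 tumors the adjusted p was 0.0393 for Flt1 and 0.0492 for Kdr. Flt4 averaged under 1 TPM in LEN tumors and was tested through its NT values, as was Pcdh12 above. Their p-values, and the place of Flt4 among the 3 receptors that were lower, are therefore given as values only. Fgfr1 was at 104 to 134 TPM in NT and 110 to 134 TPM in LEN tumors (0.06, adjusted p = 0.838), with a negative sign after either rescaling. Pdgfra was at 30.2, 40.1 and 41.2 TPM against 43.1, 46.1 and 61.0 TPM (0.42, SE 0.17, adjusted p = 0.273). Fgfr3 and Kit were at 2.00 to 3.23 and 1.79 to 3.69 TPM over the 6 tumors, with differences of -0.01 and 0.10, and Fgfr2, Fgfr4 and Ret were under the filter. Of 13 angiogenic ligands and co-receptors tested, 0 passed. Vegfa itself was at 307, 364 and 231 TPM in NT and 283, 364 and 311 TPM in LEN tumors (0.10, adjusted p = 0.802), while Vegfc, the ligand of VEGFR3, was at 4.33, 5.34 and 5.26 TPM against 11.7, 9.82 and 6.87 TPM (0.78, SE 0.19, adjusted p = 0.112). Hgf, the ligand of MET, was at 4.50, 3.90 and 2.71 TPM against 6.85, 6.70 and 6.75 TPM (0.74, SE 0.17, adjusted p = 0.0986).

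Only a few vessel-related genes passed the test in EMT6, and they did not move one way. Kcne3, a potassium channel subunit used as a marker of endothelial tip cells, fell from 7.5, 8.77 and 8.3 TPM in NT to 1.88, 0.88 and 1.96 TPM in LEN tumors. Its mean TPM was 5.21-fold lower (-1.86, SE 0.21, adjusted p = 0.0273). Gpihbp1, the capillary protein that carries lipoprotein lipase to the vessel lumen, fell from 17.3, 16.5 and 16.2 TPM to 7.27, 4.79 and 6.21 TPM, which is 2.74-fold lower (-1.33, SE 0.15, adjusted p = 0.0273). Both genes had narrow NT values and a wide gap to every LEN tumor. Aqp1, a water channel of capillaries and other cells, rose from 20.9, 27.1 and 27.3 TPM to 44.1, 54.0 and 51.7 TPM (0.97, SE 0.13, adjusted p = 0.0353). Des, the intermediate filament of muscle cells and pericytes, rose from 5.14, 4.93 and 5.52 TPM to 13.5, 12.1 and 10.2 TPM (1.05, SE 0.13, adjusted p = 0.0287). Of 9 capillary lipid uptake genes tested, Gpihbp1 and Aqp1 were the ones that passed, and of 13 endothelial transcription factors 0 passed, with a lowest adjusted p of 0.17. Which cells the rise of Des came from was not tested. Of 11 pericyte and smooth muscle genes tested, 9 had a negative difference, as Abcc9 at 2.18, 2.73 and 4.82 TPM in NT and 1.02, 1.03 and 1.07 TPM in LEN tumors (-1.01, adjusted p = 0.119), and Des alone passed.

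Among the other tip cell and basement membrane genes, 0 passed. Of 14 tip cell and Notch genes tested, Kcne3 alone passed, 11 had a negative difference and 3 a positive one, 3 were lower at an unadjusted p under 0.05, and the median was -0.09. The lowest p after Kcne3 were those of Dll4 and Esm1. Dll4, the Notch ligand of tip cells, was at 2.94, 4.21 and 4.11 TPM in NT and 1.60, 1.54 and 1.67 TPM in LEN tumors (-0.86, SE 0.18, adjusted p = 0.0818). Esm1, a VEGF-induced proteoglycan of tip cells, was at 2.18, 4.87 and 2.59 TPM against 0.40, 0.67 and 0.85 TPM (-1.32, SE 0.28, adjusted p = 0.0868). Every NT tumor was above every LEN tumor for Dll4, while Esm1 was under 1 TPM in all LEN tumors and was tested through its NT values. The place of Esm1 among the 3 genes that were lower is therefore a value only. Of 13 genes of the vascular basement membrane, 8 were lower at an unadjusted p under 0.05, 1 was higher and 0 passed, with a median difference of -0.44, and 6 passed with the spread of all 72 tumors, all lower. Nid2, a nidogen that links laminin and collagen IV, was at 5.70, 8.80 and 11.5 TPM against 2.99, 1.55 and 3.07 TPM (-1.44, SE 0.28, adjusted p = 0.0708). Hspg2, which encodes perlecan, was at 82.8, 98.4 and 103 TPM against 68.2, 67.3 and 72.4 TPM (-0.44, SE 0.10, adjusted p = 0.0974). Igfbp3, a secreted binding protein of insulin-like growth factors outside these lists, fell from 62.2, 91.7 and 94.1 TPM to 31.03, 22.8 and 28.0 TPM, 3.03-fold by mean TPM (-1.55, SE 0.18, adjusted p = 0.0287).

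Hemoglobin genes, which are expressed by red blood cells and their precursors, had the largest falls of the protein-coding genes. Hbb-bs fell from 60.9, 79.2 and 58.2 TPM in NT to 12.7, 11.4 and 8.91 TPM in LEN tumors, that is from 66.1 ± 11.4 to 11 ± 1.93 TPM (SD, n = 3 each; -2.48, SE 0.16, limma adjusted p = 0.00316). Hba-a2 fell from 65.2, 79.1 and 54.3 TPM to 12.1, 14.4 and 11.1 TPM (-2.30, SE 0.16, adjusted p = 0.00316). Hba-a1 fell from 29.2, 41.8 and 34.8 TPM to 3.92, 4.78 and 6.63 TPM (-2.58, SE 0.20, adjusted p = 0.00552). Each was 5.29 to 6.89 times higher in NT tumors by mean TPM, and the near-identical copies of each globin share reads, so their separate values are uncertain. With the spread of all 72 tumors Hba-a2 lost its call (adjusted p = 0.0503). Of 5 red blood cell markers tested, these 3 passed in the fit of the EMT6 tumors, and Hbb-bt was lower without passing (-1.42, adjusted p = 0.105). Alas2, the heme synthesis enzyme of red cell precursors, was at 4.45, 5.61 and 4.99 TPM against 5.03, 2.39 and 6.56 TPM (-0.16, adjusted p = 0.818) and overlapped between the groups. In treatment-naive tumors Hbb-bs was at 104 ± 87.2 TPM (SD, n = 3).

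**Figure D2:**
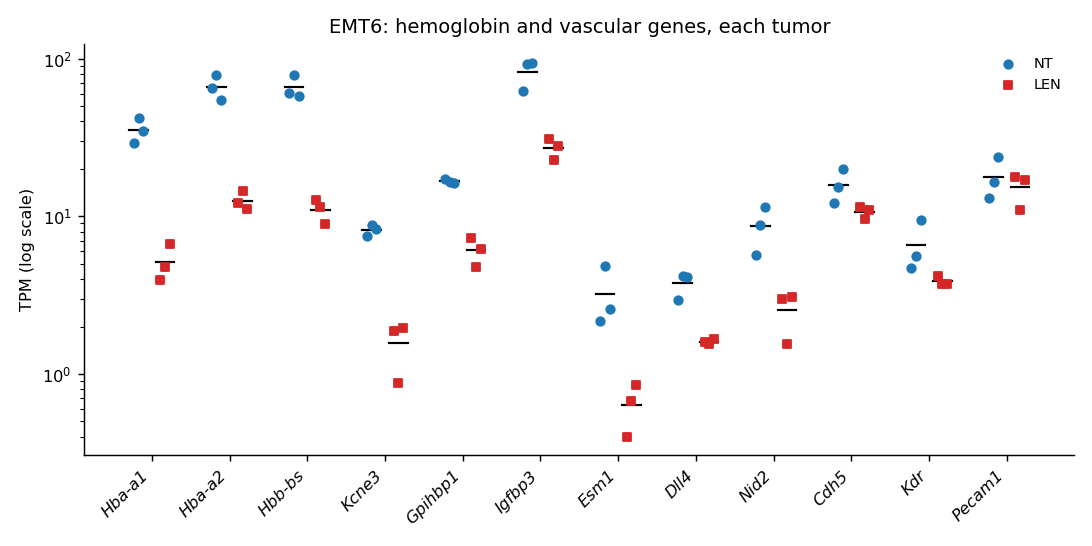
TPM (y axis, log scale) of hemoglobin and vascular genes in each EMT6 tumor, with NT as blue circles, LEN as red squares and the group mean as a bar. The hemoglobin genes, Kcne3, Gpihbp1 and Igfbp3 are separated by a gap, whereas Cdh5 and Kdr nearly meet and Pecam1, with LEN tumors between 10.95 and 17.8 TPM, overlaps.

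The highest rises among named gene groups were those of major histocompatibility complex (MHC) class II, which presents peptides to CD4+ T cells. All 8 class II genes tested were higher in every LEN tumor than in any NT tumor, and 5 passed, with a median difference of 1.85 over the 8. With the spread of all 72 tumors, 6 of the 8 passed. Cd74, the invariant chain on chromosome 18 (60803848 to 60812652, GRCm38), rose from 178, 106 and 129 TPM to 761, 419 and 749 TPM. Its mean went from 137 ± 36.8 to 643 ± 194 TPM (SD, n = 3 each), a ratio of 4.68 (2.20, SE 0.27, limma adjusted p = 0.0287). The chains H2-Aa (chromosome 17, 34282744 to 34287823) and H2-Eb1 (chromosome 17, 34305867 to 34316674) moved with it. H2-Aa rose from 40.9, 24.4 and 33.6 TPM to 184, 96.2 and 171 TPM (2.13, SE 0.28, adjusted p = 0.0332). H2-Eb1 rose from 31.3, 17.7 and 28.0 TPM to 150, 77.4 and 139 TPM (2.19, SE 0.29, adjusted p = 0.0352). NT replicate 2 was the lowest NT tumor and LEN replicate 3 the lowest LEN tumor in each of these 3 genes. H2-Ab1 rose 4.19-fold by mean TPM (1.99, SE 0.31, adjusted p = 0.0432), and H2-DMb1, a chain of the peptide loader, rose from 6.11, 3.29 and 4.34 TPM to 19.5, 11.2 and 21.8 TPM (1.71, SE 0.28, adjusted p = 0.0477). Ciita, the master regulator of class II transcription, was at 1.35, 1.18 and 1.77 TPM against 5.09, 2.70 and 6.13 TPM and did not pass (1.17, SE 0.27, adjusted p = 0.0988), nor did H2-DMa (1.13, adjusted p = 0.0583) or the protease gene Ctss (0.86, adjusted p = 0.0870). The summed level of the 8 genes was 314 to 442 TPM in NT and 904 to 1649 TPM in LEN tumors. After protein-coding rescaling the lowest adjusted p of the list was 0.057, and after upper-quartile rescaling 0.0719.

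Markers of the cells that carry class II by profession were checked beside this rise. Of 17 dendritic and B cell genes, 12 were under the filter, among them Ms4a1, Flt3, Xcr1 and Clec9a, and 0 of the 5 tested passed or had groups that did not overlap. Ccr7, of migrating dendritic cells, was at 0.63, 0.79 and 1.06 TPM in NT and 2.34, 0.91 and 2.07 TPM in LEN tumors. The summed level of the 17 genes was 219 to 289 TPM in NT and 235 to 288 TPM in LEN tumors, most of it Fscn1 at 205 to 270 TPM, which mesenchymal cells also express. Macrophage genes are given below, and their part in the rise of class II was not tested.

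MHC class I, which presents peptides of the cell's own proteins to CD8+ T cells, rose by less and from far higher levels. Of 13 genes tested, 6 passed, all higher, 12 had groups that did not overlap, and the median difference was 0.55. With the spread of all 72 tumors, 0 of the 13 passed in limma, the lowest adjusted p being that of H2-D1 (0.105). H2-D1 rose from 771, 697 and 685 TPM to 1119, 1059 and 1103 TPM (0.61, SE 0.07, adjusted p = 0.0287). H2-K1 rose from 289, 277 and 257 TPM to 428, 383 and 428 TPM (0.59, SE 0.08, adjusted p = 0.0359), and B2m, the shared light chain, from 1932, 1699 and 1654 TPM to 2656, 2470 and 2588 TPM (0.55, SE 0.08, adjusted p = 0.0419). These are rises of 1.46 to 1.53-fold by mean TPM with a small spread. Tapbp, of the peptide loading complex (0.59, adjusted p = 0.0444), Tap1, the peptide transporter (0.75, adjusted p = 0.0461), and the immunoproteasome subunit gene Psmb9 (0.67, adjusted p = 0.0471) also rose. Nlrc5, the regulator of class I transcription, was at 74.2, 68.4 and 66.9 TPM against 91.3, 78.5 and 115 TPM without passing (0.42, adjusted p = 0.195). The chaperone gene Calr overlapped between groups (0.08, adjusted p = 0.732). Reads of the H2 genes are partly shared among near-identical members, so the split among them is uncertain.

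GTPases induced by interferon gamma, which attack intracellular pathogens and their vacuoles, formed the other large group of rises. They are described in 2 families chosen after their values were seen. Of 10 guanylate-binding proteins tested, 7 passed, all higher, with a median difference of 1.25. Gbp2 rose from 159, 130 and 133 TPM to 311, 272 and 380 TPM (1.17, SE 0.14, adjusted p = 0.0287), and Gbp4 from 28.0, 16.3 and 19.8 TPM to 86.1, 53.1 and 117 TPM (1.91, SE 0.30, adjusted p = 0.0451). Of 6 immunity-related GTPases tested, 5 passed, all higher, with a median of 1.73. Igtp rose from 23.9, 13.7 and 18.8 TPM to 71.1, 50.3 and 84.2 TPM (1.82, SE 0.24, adjusted p = 0.0343). Iigp1 rose from 20.0, 10.2 and 16.5 TPM to 64.0, 45.2 and 90.0 TPM (2.02, SE 0.30, adjusted p = 0.0405), and Tgtp2 from 14.6, 11.7 and 15.8 TPM to 44.9, 36.5 and 56.8 TPM (1.64, SE 0.18, adjusted p = 0.0273). All 16 genes of both families had groups that did not overlap. With the spread of all 72 tumors, 1 of the 10 guanylate-binding proteins and 3 of the 6 immunity-related GTPases passed, and Gbp2 (adjusted p = 0.183) and Gbp4 (adjusted p = 0.0574) did not. Tgtp2 and its near copy Tgtp1 (2.19, adjusted p = 0.0537) share reads, as do members of the Gbp family.

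The promoters of 3 class II genes and 3 GTPase genes that rose are shown, as examples chosen among those with a window that holds a sequence element known from their class of gene. The element TGATTGG, the Y box of class II promoters, holds the inverted CCAAT sequence, and GAAANNGAA is the core bound by interferon regulatory factors. Both were searched on both strands of RefSeq windows from 250 bases before to 50 bases after each transcription start. TGATTGG was in 7.82% of all 32851 windows, in 3 of the 3 class II genes, of 5 called, that have a window, in 4 of 6 called class I genes and in 0 of the 8 GTPase genes, of 12 called, that have a window. GAAANNGAA was in 8.56% of all windows, in 8 of these 8 GTPase genes, in 0 of the 3 class II genes and in 1 of the 6 class I genes. A gene was counted if any of its windows held the element, whereas the shares over all windows are per window. The 120 bases before the start are printed 5′ to 3′ on the strand of the gene from RefSeq (GRCm38.p6), with the element in capitals. The regions are chr17:34287824-34287943 (minus strand) for H2-Aa, chr17:34305747-34305866 (plus) for H2-Eb1, chr17:34153071-34153190 (plus) for H2-DMb1, chr3:142620543-142620662 (plus) for Gbp2, where the element is on the opposite strand, chr11:58199436-58199555 (plus) for Igtp and chr11:49064213-49064332 (minus) for Tgtp2.
H2-Aa: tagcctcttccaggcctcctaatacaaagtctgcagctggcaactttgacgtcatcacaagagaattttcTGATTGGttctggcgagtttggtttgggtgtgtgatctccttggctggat
H2-Eb1: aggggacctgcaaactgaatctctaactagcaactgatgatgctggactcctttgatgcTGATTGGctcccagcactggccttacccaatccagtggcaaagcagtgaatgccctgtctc
H2-DMb1: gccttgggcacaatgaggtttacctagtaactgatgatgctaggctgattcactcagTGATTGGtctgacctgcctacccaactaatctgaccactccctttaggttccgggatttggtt
Gbp2: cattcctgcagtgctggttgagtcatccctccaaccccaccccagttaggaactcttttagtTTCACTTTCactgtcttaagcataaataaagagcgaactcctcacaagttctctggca
Igtp: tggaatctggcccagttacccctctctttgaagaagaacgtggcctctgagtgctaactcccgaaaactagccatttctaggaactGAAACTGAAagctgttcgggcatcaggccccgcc
Tgtp2: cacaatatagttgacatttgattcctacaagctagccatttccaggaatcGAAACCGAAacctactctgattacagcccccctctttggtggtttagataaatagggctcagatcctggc
In the class II promoters the element begins between 50 and 63 bases before the start, and in the GTPase promoters the distance is 34 bases for Igtp, 58 for Gbp2 and 70 for Tgtp2. A match of letters is a description of the sequence and not a measured binding site.

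**Figure D3:**
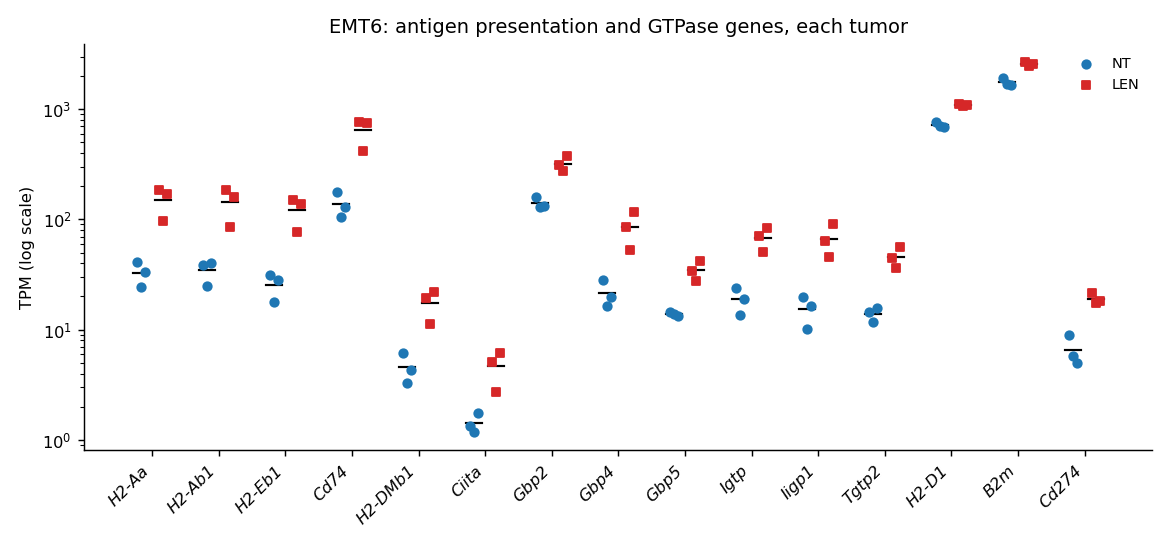
TPM (y axis, log scale) of class II, class I and GTPase genes in each EMT6 tumor, with NT as blue circles, LEN as red squares and the group mean as a bar. LEN tumors lie above all NT tumors in each gene plotted, by 4.68-fold in mean TPM for Cd74 and 1.46-fold for B2m.

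Of the wider interferon response, a minority of genes passed. Among 20 genes that respond mainly to type I interferon, 16 were higher at an unadjusted p under 0.05 and 2 passed, with a median difference of 0.78. Zbp1, a sensor of nucleic acid in Z form, rose from 34.1, 23.6 and 31.2 TPM to 78.5, 60.6 and 74.0 TPM (1.24, SE 0.16, adjusted p = 0.0301). Irf7, a transcription factor of the response, rose from 44.7, 30.3 and 40.1 TPM to 89.4, 85.3 and 74.8 TPM (1.11, SE 0.15, adjusted p = 0.0352). Of 10 genes tested of the interferon gamma and CXCR3 list, 3 passed, Gbp2, Gbp5 and Cd274. Cd274, which encodes the checkpoint ligand PD-L1, rose from 8.96, 5.78 and 5.01 TPM to 21.6, 17.4 and 18.3 TPM, 2.90-fold by mean (1.43, SE 0.20, adjusted p = 0.0353). Cxcl9, a chemokine that draws T cells, had the highest difference of the list, at 12.4, 3.04 and 4.60 TPM against 38.7, 25.99 and 58.2 TPM, and did not pass (2.57, SE 0.46, adjusted p = 0.0583). Ifng itself, Cxcr3, the receptor of Cxcl9, and Ido1 were under the filter in these tumors. Ly6a, an interferon-responsive surface protein of stem and T cells, rose from 224, 137 and 125 TPM to 523, 420 and 651 TPM (1.73, SE 0.24, adjusted p = 0.0369).

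Transcripts of T and NK cells were low in EMT6 and higher after LEN, and 0 of 17 genes tested passed. In this list 12 genes were higher at an unadjusted p under 0.05, 11 did not overlap, and the median difference was 0.81. The summed level of all 24 genes was 32.2 to 44.7 TPM in NT and 59.8 to 86.5 TPM in LEN tumors. Il7r, the receptor of interleukin 7, was at 3.38, 2.02 and 1.90 TPM against 8.56, 7.03 and 5.79 TPM (1.25, SE 0.21, adjusted p = 0.0539). Gzmb, a granzyme of cytotoxic cells, was at 2.56, 1.2 and 2.21 TPM against 4.69, 5.74 and 9.76 TPM (1.35, SE 0.29, adjusted p = 0.0868). At such levels a minimum of 5 on the mean TPM lowered the median of the list to 0.30, and a pseudocount of 0.1 raised it to 1.35. Cd4, Cd8b1, Foxp3, Tbx21 and the checkpoint genes Pdcd1 and Ctla4 were under the filter. Of 8 checkpoint receptors tested, 0 passed, the lowest p being that of Lag3 at 1.21, 2.04 and 1.49 TPM against 3.26, 3.24 and 3.79 TPM (0.79, SE 0.19, adjusted p = 0.106).

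Macrophage genes had a positive difference in most cases, and 1 passed the test. Of 24 genes the summed level was 3402 to 3985 TPM in NT and 4949 to 5361 TPM in LEN tumors, of which Spp1 made up 1034 to 1326 and 1975 to 2379 TPM. Of 23 tested, 19 had a positive and 4 a negative difference, with a median of 0.35. Among them Spp1 alone passed, and 8 were higher at an unadjusted p under 0.05. Spp1, which encodes the secreted protein osteopontin, rose from 1264, 1326 and 1034 TPM to 1987, 2379 and 1975 TPM (0.81, SE 0.12, adjusted p = 0.0408). The lineage genes Adgre1 and Csf1r overlapped between the groups, with differences of 0.23 (adjusted p = 0.553) and -0.01 (adjusted p = 0.987). Nos2, the inducible nitric oxide synthase, was at 16.5, 12.1 and 7.66 TPM against 29.5, 33.5 and 33.1 TPM (1.39, SE 0.24, adjusted p = 0.0537). Mrc1, the mannose receptor, was at 20.0, 28.5 and 51.2 TPM against 24.3, 14.8 and 18.7 TPM (-0.68, SE 0.33, adjusted p = 0.347). Fcgr4, an activating receptor for antibodies on monocytes and neutrophils that was named for its rank among all genes, rose from 9.01, 5.29 and 8.85 TPM to 34.7, 21.4 and 35.7 TPM (1.85, SE 0.25, adjusted p = 0.0352). Of 14 neutrophil genes and CXCR2 ligands tested, 9 were higher at an unadjusted p under 0.05 and 1 passed. That gene, the chemokine receptor Cxcr2, rose from 2.76, 1.97 and 1.94 TPM to 5.95, 6.40 and 5.18 TPM (1.09, SE 0.17, adjusted p = 0.0419). Csf3r, the receptor of the neutrophil growth factor, followed at 9.11, 6.44 and 9.0 TPM against 14.3, 16.2 and 15.6 TPM (0.85, SE 0.15, adjusted p = 0.0550).

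Complement genes and immediate early genes are 2 further families chosen after their values were seen. Of 18 complement genes tested, 3 passed, all higher, with a median difference of 0.57. C1ra, a serine protease of the first component, had the lowest p of the genes that rose in these families, from 32.1, 32.7 and 31.6 TPM to 56.0, 59.6 and 57.7 TPM (0.83, SE 0.08, adjusted p = 0.0172). Its partner C1s1 rose from 33.7, 31.6 and 22.8 TPM to 77.4, 69.6 and 69.3 TPM (1.28, SE 0.15, adjusted p = 0.0287), and C3, the central component, from 30.5, 27.7 and 29.1 TPM to 52.3, 49.98 and 70.6 TPM (0.95, SE 0.14, adjusted p = 0.0400). The recognition subunit C1qa, a macrophage product, was at 139, 135 and 154 TPM against 227, 136 and 195 TPM (0.35, adjusted p = 0.371). Of 25 immediate early genes, which answer growth factors and stress within minutes, 7 passed, all higher, and 20 were higher at an unadjusted p under 0.05, with a median of 0.53. Fosb, a subunit of AP-1, rose from 2.74, 3.03 and 1.99 TPM to 9.04, 13.2 and 7.43 TPM (1.58, SE 0.22, adjusted p = 0.0369). Junb (0.60, adjusted p = 0.0353), Jund (0.67, adjusted p = 0.0400), Arc (1.15, adjusted p = 0.0444), Myc (0.67, adjusted p = 0.0488), Socs3 (0.86, adjusted p = 0.0332) and Cebpb (0.74, adjusted p = 0.0332) were the other 6. Cebpb, a transcription factor that is also the single gene that passed of 19 integrated stress response genes tested, rose from 118, 104 and 93.5 TPM to 177, 170 and 180 TPM. Of 16 genes of MAP kinase feedback, which growth factor receptors induce through ERK, 0 passed. The lowest p values were those of Egr1 (0.85, adjusted p = 0.0570) and Fos (0.84, adjusted p = 0.0653), with differences in the direction of the immediate early genes they belong to. Dusp6 and Spry2, which restrain the ERK pathway, had differences of 0.48 (adjusted p = 0.133) and 0.56 (adjusted p = 0.0743).

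Of genes that answer low oxygen, 0 of 23 passed. Among them 8 were higher at an unadjusted p under 0.05, with a median difference of 0.31. Angptl4, a secreted inhibitor of lipoprotein lipase, was at 43.5, 36.2 and 41.1 TPM against 69.0, 56.7 and 70.8 TPM (0.69, SE 0.12, adjusted p = 0.0537), and P4ha1, a collagen hydroxylase, at 112, 114 and 98.4 TPM against 150, 156 and 144 TPM (0.47, SE 0.08, adjusted p = 0.0583). The defining marker Car9 overlapped between groups, at 54.5, 46.7 and 31.7 TPM against 44.9, 66.4 and 52.6 TPM (0.31, adjusted p = 0.521). NT replicate 4 was the lowest tumor for Car9, Vegfa and the summed level of the list. Of 21 glycolysis genes, 13 were higher at an unadjusted p under 0.05 and 0 passed, with a median of 0.35. Aldoa, which encodes an aldolase, had the lowest p of these, at 1179, 1121 and 905 TPM against 1517, 1628 and 1424 TPM (0.52, SE 0.11, adjusted p = 0.0897). Hk1, the hexokinase that opens glycolysis, followed at 78.2, 80.4 and 60.7 TPM against 111, 109 and 97.2 TPM (0.54, SE 0.12, adjusted p = 0.0987). Subunits of oxidative phosphorylation had a median of -0.02 over 23 genes, with a sign that changed on leaving out NT replicate 4 (0.08), and with 0 passing and 0 at an unadjusted p under 0.05.

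Cell cycle genes were lower without passing. Of 30 tested, 28 had a negative difference and 11 were lower at an unadjusted p under 0.05, with a median of -0.28. Mki67, the marker of cycling cells, was at 50.8, 56.6 and 67.6 TPM against 43.6, 35.6 and 42.1 TPM, with no overlap (-0.51, SE 0.13, adjusted p = 0.119). Ccnd1, the cyclin of early G1, stood against the list at 117, 96.6 and 106 TPM against 172, 137 and 157 TPM (0.54, SE 0.11, adjusted p = 0.0785). Of 12 p53 target genes, 0 passed. Fas, a death receptor, was at 7.58, 7.05 and 7.37 TPM against 11.7, 12.0 and 10.9 TPM (0.59, SE 0.10, adjusted p = 0.0558), and Phlda3, a repressor of AKT, at 43.2 to 45.01 against 53.4 to 64.2 TPM (0.42, adjusted p = 0.0907).

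Among matrix genes single members rose. Of 23 fibroblast and interstitial matrix genes, Dcn alone passed, and the median was 0.04, which turned negative after either rescaling. Dcn, which encodes decorin, rose from 27.4, 33.4 and 41.2 TPM to 77.6, 94.8 and 77.8 TPM (1.28, SE 0.16, adjusted p = 0.0287). The collagen genes Col1a1 and Col3a1 overlapped between groups, with NT replicate 4 the highest tumor in both. Timp1, the inhibitor of matrix metalloproteinases, rose from 122, 106 and 124 TPM to 218, 202 and 198 TPM (0.81, SE 0.09, adjusted p = 0.0273) and was the gene that passed among 15 metalloproteinases and Timps. Snai1, a transcription factor of mesenchymal state, rose within narrow values from 42.0 to 43.8 TPM in NT to 63.3 to 65.2 TPM in LEN tumors (0.58, SE 0.07, adjusted p = 0.0287), as the gene that passed among 16 epithelial and mesenchymal genes tested. Of 11 coagulation and fibrinolysis genes, 8 were higher at an unadjusted p under 0.05 and 0 passed, with Serpinb2, a plasminogen activator inhibitor, at 2.42, 1.21 and 0.65 TPM against 9.21, 3.40 and 7.06 TPM (1.62, SE 0.38, adjusted p = 0.101) and Thbd, which encodes thrombomodulin, next (0.44, adjusted p = 0.102). Of 5 vascular adhesion genes tested 0 passed, with Vcam1 at 0.32 (adjusted p = 0.163) and Icam1 at 0.69 (adjusted p = 0.193).

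In the lists of muscle, adipocyte and skin markers 0 genes passed. Tcap, a protein of the sarcomere outside the list and chosen after its values were seen, was at 0.68, 0.74 and 0.47 TPM in NT and 2.85, 2.65 and 2.90 TPM in LEN tumors (1.22, adjusted p = 0.0457). Of the 11 muscle markers tested, 6 were higher at an unadjusted p under 0.05. Among them Tnnt3, a troponin of fast muscle, was at 3.17, 6.31 and 4.38 TPM against 8.51, 8.67 and 9.90 TPM (0.87, adjusted p = 0.107). Actn3, an actinin of fast muscle, was at 0.18, 0.43 and 0.46 TPM against 2.60, 2.13 and 2.44 TPM and passed the filter through its LEN values, as Tcap did. The place of Actn3 among the 6 is therefore a value only. The 3 adipocyte and 3 skin markers tested overlapped between groups.

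**Figure D4:**
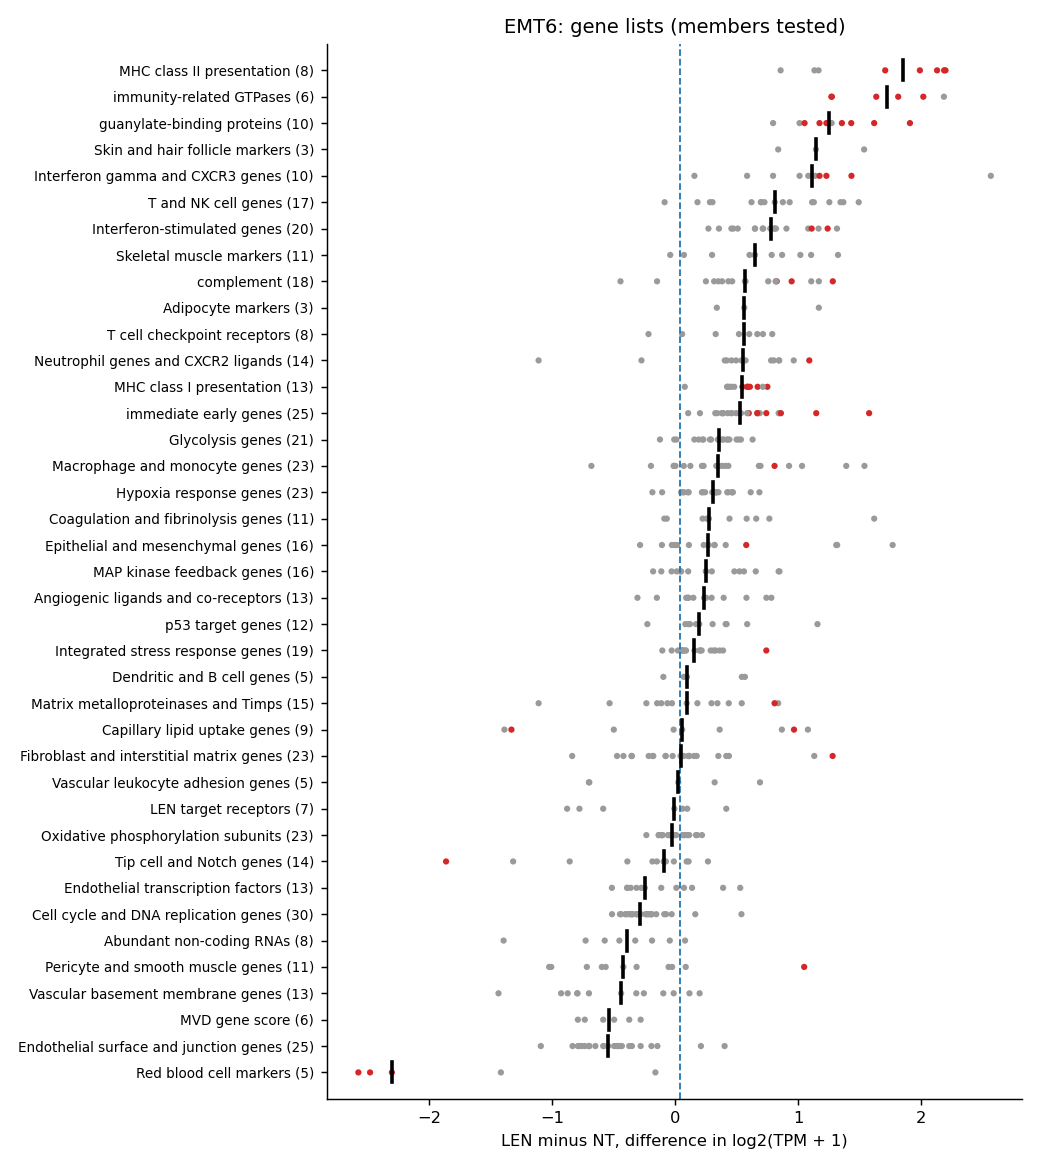
Difference between LEN and NT tumors (x axis, log2(TPM + 1)) of each tested member of 39 gene lists (rows, with the number tested), 1 point per gene, red where the adjusted p was under 0.05. Black bars mark the median of each list and the dashed line the median of all genes (0.04), from 1.85 for MHC class II to -2.30 for red blood cell markers.

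Outside the lists, further named genes fell. Mdm1, a microtubule-binding protein of centrioles, fell from 12.7, 11.1 and 14.1 TPM to 6.63, 5.34 and 7.18 TPM (-0.89, SE 0.14, adjusted p = 0.0471). Cdk5rap2, a centrosomal protein, fell from 18.7, 20.5 and 19.9 TPM to 11.1, 11.8 and 13.1 TPM (-0.67, SE 0.10, adjusted p = 0.0419), and Pstk, the kinase that prepares the selenocysteine tRNA, from 12.3, 14.9 and 12.5 TPM to 6.36, 7.33 and 7.64 TPM (-0.81, SE 0.12, adjusted p = 0.0430). The small nucleolar RNA gene Snora7a had the lowest adjusted p of all genes, 1.82e-05. It was at 42.5, 33.5 and 41.6 TPM in NT and listed at 0 in the 3 LEN tumors, and Snora65 was at 46.9, 23.99 and 5.71 TPM and likewise listed at 0 (adjusted p = 0.0400), so no fold is given. Short transcripts are often listed at 0 in such tables. Of 183 small nucleolar RNA genes tested, 44 were listed at 0 in all 3 LEN tumors and 18 in all 3 NT tumors, 2 passed, and the median difference was -0.38. Among abundant non-coding RNAs, Rn7s2 (-0.73, adjusted p = 0.0805) and Rn7s1 (-0.57, adjusted p = 0.120), both RNAs of the signal recognition particle, were lower in every LEN tumor, while Rn7sk overlapped (0.08, adjusted p = 0.684). In the other direction, AA467197, a gene with an open reading frame and a microRNA, rose from 8.4, 6.5 and 10.4 TPM to 42.3, 31.1 and 30.3 TPM (1.92, SE 0.19, adjusted p = 0.0221). Rhox4a, of a homeobox family of near copies on the X chromosome that share reads, was at 0.11, 0.13 and 0 TPM in NT and 7.47, 9.13 and 6.11 TPM in LEN tumors (adjusted p = 0.00316) and passed the filter through LEN alone.

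To see where EMT6 differed from the rest of the series, its LEN effect was compared with the mean effect of the other 11 models in a limma fit of all 72 day 8 tumors. Of 17351 genes, 87 differed with an adjusted p under 0.05, of which 52 (0.3%) had a more positive and 35 (0.202%) a more negative difference in EMT6. The split turned after rescaling, with 88 more positive and 146 more negative by the upper quartile and 68 and 209 over protein-coding genes. The methods name more than 1 sequencing instrument for the study without saying which tumors were run on which, so its part in differences between models was not tested. The other models are tumors of liver, kidney, lung, colon, breast, bladder and skin in hosts of several strains (BALB/cAnNCrlCrlj, C57BL/6NCrl, C57BL/6JCrl, C57L/J, DBA/2NCrl and C3H/HeNCrl), and both liver models were grown in males. Strain, sex and tumor type therefore cannot be told apart from the model in this contrast, and the MHC haplotype differs between strains. Class II genes were among the named genes with the largest differences, though not among those with the lowest p. The effect on Cd74 was 2.20 in EMT6 and 0.31 on average elsewhere, a difference of 1.89 (SE 0.47, adjusted p = 0.0457), and that on H2-DMb1 was 1.71 against 0.11 (1.60, SE 0.39, adjusted p = 0.0416). These were 2 of 8 class II genes, since H2-Aa, H2-Eb1 and H2-Ab1 had adjusted p-values of 0.0740, 0.0665 and 0.0833. All 8 had an unadjusted limma p under 0.05 for the difference, as had 2163 of the 17351 genes. The median difference was 1.62 over the 8 and 0.03 over all genes. H2-Ea-ps, annotated as a polymorphic pseudogene, encodes the E alpha chain, which BALB/c mice express and C57BL/6 mice do not. It differed by 1.96 (SE 0.43, adjusted p = 0.0205), but the mean of the other models, 0.01, includes 4 models in C57BL/6 or C57L/J hosts, in whose day 8 tumors it was listed at 0 throughout. Fcgr4 rose in EMT6 by 1.85 and was at 0.01 on average elsewhere (1.85, SE 0.45, adjusted p = 0.0384), and Fosb was at 1.58 against 0.06 (1.52, SE 0.31, adjusted p = 0.0102). Of the immediate early genes, Arc was at 1.15 against 0.14 (1.01, SE 0.14, adjusted p = 1.15e-05) and Myc at 0.67 against 0.02 (0.65, SE 0.13, adjusted p = 0.00598). AA467197 was at 1.92 against 0.41 (1.504, SE 0.37, adjusted p = 0.0430). Apoe, a lipoprotein of macrophages, was at 242, 383 and 425 TPM in NT and 656, 441 and 581 TPM in LEN tumors of EMT6, and its effect differed by 1.11 from the -0.42 of the other models (SE 0.27, adjusted p = 0.0357). Aqp1 (0.97 against -0.03, difference 1.00, adjusted p = 0.0499) and Ccnd1 (0.54 against -0.02, difference 0.56, adjusted p = 0.0122) differed in the same direction.

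In the other direction, Mdm1 (-0.89 against 0.05, difference -0.93, SE 0.18), Pstk (-0.81 against -0.01, difference -0.79, SE 0.16) and the cadherin gene Cdh24 (-0.70 against 0.02, difference -0.72, SE 0.14) each had an adjusted p of 0.00598. Aarsd1, an alanyl-tRNA editing protein, differed by -0.53 (SE 0.13, adjusted p = 0.0393) and Agap1, a regulator of Arf GTPases, by -0.40 (SE 0.09, adjusted p = 0.0276). The MVD gene score was not among the differences. It changed by -0.66 (SE 0.05) on average in the other 11 models, and EMT6 differed from them by 0.12 (SE 0.16, 95% interval -0.20 to 0.44). The endothelial, hemoglobin and GTPase lists had 0 genes that differed. The intervals leave room for a difference, as for Cdh5 with 0.74 (adjusted p = 0.109). The count of 87 genes ranged from 29 to 277 with the settings, given in the closing part.

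**Figure D5:**
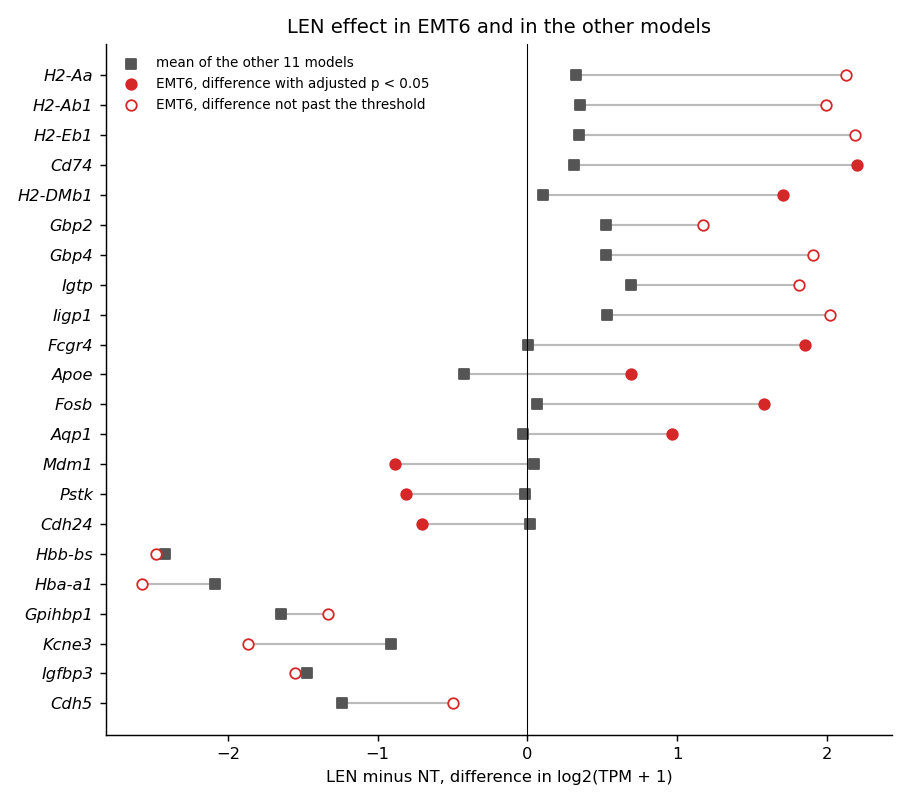
LEN effect (x axis, LEN minus NT in log2(TPM + 1)) on named genes (rows) in EMT6 (red circles) and as the mean of the other 11 models (grey squares), with filled circles where the 2 effects differed with an adjusted p under 0.05. Cd74 is at 2.20 in EMT6 and 0.31 elsewhere, whereas the symbols of Hbb-bs and Igfbp3 nearly coincide.

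The other breast model, 4T1, is grown in the same strain and sex. Against 4T1, 1201 genes differed, 1044 (6.02%) more positive and 157 (0.905%) more negative in EMT6. This count rests on a single 4T1 tumor, LEN replicate 4, in which protein-coding genes took 27.5% of the TPM, against at least 40.5% in the other day 8 tumors of the series. Without it 109 genes differed, 52 more positive and 57 more negative. With it, the split was 1173 more positive and 438 more negative after upper-quartile rescaling but 561 and 900 after protein-coding rescaling. The effect on H2-Aa was 2.13 in EMT6 and -0.73 in 4T1, a difference of 2.86 (SE 0.68, adjusted p = 0.0123), and 2.28 without that tumor (adjusted p = 0.1). For Cd74 the difference was 2.57 (SE 0.64, adjusted p = 0.0155) and 2.27 without it (adjusted p = 0.0940). H2-Eb1 (2.54, adjusted p = 0.0215) and H2-Ab1 (2.39, adjusted p = 0.0206) were likewise past the threshold only with it, at 2.27 (adjusted p = 0.117) and 2.05 (adjusted p = 0.126) without. Fcgr4 differed by 2.86 (SE 0.61, adjusted p = 0.00594), with 2.36 (adjusted p = 0.0510) without that tumor. Of the genes more negative in EMT6, Cdh24 (-0.96, SE 0.19, adjusted p = 0.00453), the mannosidase gene Man1a2 (-1.34, SE 0.28, adjusted p = 0.00521) and Cgnl1, a protein of cell junctions (-0.95, SE 0.26, adjusted p = 0.0219), kept an adjusted p under 0.05 without it, at -1.06 (0.0066), -0.97 (0.0484) and -1.07 (0.0460). Cmc2, Safb2 and the ribosomal RNA gene Rn18s-rs5 did not, with -0.73 (adjusted p = 0.178), -0.79 (adjusted p = 0.135) and -0.65 (adjusted p = 0.36). With that tumor, much of these differences lay in 4T1. Effects were -0.30 in EMT6 and 1.04 in 4T1 for Man1a2, and -0.19 and 1.24 for Rn18s-rs5. They were -0.40 and 0.61 for Cmc2, -0.215 and 0.75 for Safb2, -0.52 and 0.44 for Cgnl1, and -0.70 and 0.26 for Cdh24. None of these genes passed between LEN and NT in EMT6. The MVD gene score differed from that of 4T1 by 0.16 (SE 0.22, 95% interval -0.27 to 0.60).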

How the data were processed

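RNA of 12 mouse tumor models was sequenced after depletion of ribosomal RNA. The authors deposited TPM values per gene with 2 decimals, and the submitters' processing notes name Trimmomatic 0.36, STAR 2.5.2b, RSEM 1.2.31 and GRCm38. Groups came from the labels. Gene types and positions came from GENCODE, matched for 50376 of 50686 genes. LEN and NT tumors of EMT6 were compared with limma 3.58.1 (R 4.3.3, mean-variance trend) on log2(TPM + 1), over genes averaging 1 TPM or more, with Benjamini-Hochberg adjustment and a threshold of 0.05. Contrasts between models used all 72 day 8 tumors as 24 groups. The code was tested on simulated data. TPM keeps no depth, so no counting interval is given. Summaries and plots used Python 3.11.15, numpy 2.4.6, pandas 2.3.3, scipy 1.17.1 and matplotlib 3.10.9.

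Members and lists were chosen with earlier results of these data known. Genes named individually are the 6 score genes, Pecam1, the LEN targets, per list up to 4 called genes with the lowest p (or 2 as values where none passed), the 12 largest falls and 12 largest rises among called genes with a proper symbol, a mean TPM of at least 5 and no overlap, and 6 per direction for each contrast between models. Other named genes were chosen after their values were seen. Tried as alternatives were other filters (none, or a mean of 5 TPM), a pseudocount of 0.1, rescaling over protein-coding genes or by the upper quartile, no trend, a replicate block, the spread of all 72 tumors and leaving out each tumor. A fit without 4T1 LEN replicate 4 was added after seeing the data. Some genes that the rule names are not reported here.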

Additional observations from a re-analysis of the deposited data

Results flagged for a closer look

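The LEN effect differed between EMT6 and the mean of the other 11 models, with a limma adjusted p under 0.05 for the difference itself, for the following named genes, given as EMT6 minus the others in log2(TPM + 1). It was more negative in EMT6 for Mdm1 (-0.93), Pstk (-0.79), Cdh24 (-0.72), Aarsd1 (-0.53) and Agap1 (-0.40). It was more positive for H2-Ea-ps (1.96), Cd74 (1.89), Fcgr4 (1.85), H2-DMb1 (1.60), Fosb (1.52), AA467197 (1.504), Apoe (1.11), Arc (1.01), Aqp1 (1.00), Ank (0.96), Myc (0.65) and Ccnd1 (0.56).

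Against 4T1 alone, many differences rest on 4T1 LEN replicate 4, whose protein-coding share of 27.5% stands apart, and 109 of all genes passed without that tumor in place of 1201. Those that also passed without it were more negative in EMT6 for Man1a2 (-1.34), Cdh24 (-0.96), Cgnl1 (-0.95), Sars2 (-0.73) and Aarsd1 (-0.67), and more positive for Apoe (1.64), Cst3 (1.30), Arc (1.18), Ank (1.09) and Cav1 (0.99). Of these, Cst3 was at 0.85 without the tumor, over 1.5 times less.

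The other genes passed against 4T1 only with that tumor, and the second value of each is the difference without it. They were more negative for Rn18s-rs5 (-1.43, -0.65), Cmc2 (-1.01, -0.73), Safb2 (-0.97, -0.79), Pstk (-0.76, -0.71) and Agap1 (-0.42, -0.47). They were more positive for H2-Aa (2.86, 2.28), Fcgr4 (2.86, 2.36), H2-Ea-ps (2.77, 2.24), Cd74 (2.57, 2.27), H2-Eb1 (2.54, 2.27), H2-Ab1 (2.39, 2.05), H2-DMb1 (2.38, 1.98), AA467197 (2.20, 1.78) and Dcn (1.80, 1.16). Further such genes were H2-DMa (1.74, 1.45), Ctss (1.62, 1.26), Fosb (1.60, 1.30), Adgre1 (1.37, 0.99), Aqp1 (1.24, 0.95), Spp1 (1.18, 0.76), C1qa (1.18, 0.98), Egr1 (1.17, 0.71), Havcr2 (1.15, 0.84), Csf1r (1.04, 0.77) and Myc (0.81, 0.63). Such a difference can lie in 4T1 more than in EMT6. With that tumor, Csf1r was at -0.01 in EMT6 and -1.05 in 4T1, and Adgre1 at 0.23 and -1.14. The genes named here were chosen in part for these differences.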

How the results depend on the processing

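The number of genes called between LEN and NT was 142. It was 14 with no minimum TPM, 245 with a mean TPM of at least 5, 15 after upper-quartile and 17 after protein-coding rescaling, 12 without the trend, 0 with the replicate block (limma, 1261 genes at an unadjusted p under 0.05), 585 with the spread of 72 tumors and 9 (without NT replicate 2) to 28 (without LEN replicate 3) with a tumor left out. Only replicate numbers 2 and 4 are shared between the groups, from different mice, and the deviations of same-numbered tumors had r of -0.03 and -0.03, so the numbers pair nothing and the block was kept as an alternative only. The 87 genes that differed from the other 11 models became 38 at a pseudocount of 0.1, 160 with no minimum, 29 at 5 TPM, 234 and 277 after upper-quartile and protein-coding rescaling, 199 with the replicate block, 277 without 4T1 LEN replicate 4, and 34 (without NT replicate 4) to 95 with an EMT6 tumor left out. The 1201 against 4T1 became 701 with no minimum, 41 with the replicate block, 109 without 4T1 LEN replicate 4, and 277 (without LEN replicate 2) to 1229 with an EMT6 tumor left out. After upper-quartile and protein-coding rescaling the lower and higher calls were 146 and 88, and 209 and 68, against the other 11, and 438 and 1173, and 900 and 561, against 4T1. The MVD gene score in EMT6 differed by -0.54 with a limma p of 0.0512 and 0.0544 with no minimum and a minimum of 5, and -0.72 to -0.34 with a tumor left out (p 0.0113 to 0.1002). The sign turned for Pecam1 without NT replicate 4 (0.024) and LEN replicate 3 (0.015), with a range of -0.38 to 0.024 over tumors left out. It turned for Fgfr1 (-0.038 and -0.061 after upper-quartile and protein-coding rescaling, -0.031 with the replicate block, -0.020 to 0.16 over tumors left out), for Fgfr3 (0.22 with the block, -0.15 to 0.12), for Kit (-0.064 to 0.26) and for Krtdap (-0.20 without LEN replicate 4, to 2.41). The cause was not tested. Over 103 named genes, 971 of 1426 alternative values kept direction and side of the threshold, 403 lost and 38 gained it, and 14 turned. Of 545 list medians, 514 moved by less than the spread between tumors. Depth is unknown in TPM, and genes near 1 TPM are the least certain.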

Other observations

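Further genes that rose were picked out after their values were seen. Acod1, the enzyme that makes itaconate, rose from 6.90, 3.66 and 3.88 TPM to 13.1, 16.5 and 15.8 TPM (1.51, SE 0.22, limma adjusted p = 0.0397). Il1rn, the antagonist of the interleukin 1 receptor, rose from 14.7, 9.97 and 11.5 TPM to 32.4, 27.4 and 28.5 TPM (1.23, SE 0.15, adjusted p = 0.0287). Il1rl1, the receptor of interleukin 33, rose from 201, 184 and 134 TPM to 378, 420 and 358 TPM (1.17, SE 0.15, adjusted p = 0.0337). In each of these genes every LEN tumor was above every NT tumor.

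Other genes that rose, picked in the same way, share no single role. Cst3, an inhibitor of cysteine proteases, rose from 641, 675 and 668 TPM to 1013, 1109 and 1080 TPM (0.69, SE 0.07, adjusted p = 0.0221), and Psap, the precursor of the saposins, from 483, 516 and 482 TPM to 745, 669 and 694 TPM (0.51, SE 0.07, adjusted p = 0.0397). Sod3, the extracellular superoxide dismutase, rose from 12.1, 11.6 and 11.5 TPM to 19.7, 22.5 and 21.6 TPM (0.81, SE 0.09, adjusted p = 0.0287), and Xdh, which encodes xanthine dehydrogenase, from 51.1, 48.4 and 42.9 TPM to 77.6, 90.7 and 93.3 TPM (0.86, SE 0.11, adjusted p = 0.0287). With the spread of all 72 day 8 tumors, Psap (adjusted p = 0.0787) and Sod3 (adjusted p = 0.122) lost their calls. Caveolin 1, encoded by Cav1, rose from 268, 274 and 242 TPM to 403, 414 and 386 TPM (0.62, SE 0.08, adjusted p = 0.0287). Ank, a membrane exporter of pyrophosphate, rose from 69.0, 76.8 and 65.5 TPM to 138, 164 and 130 TPM (1.02, SE 0.11, adjusted p = 0.0273). Pdpn, a glycoprotein of fibroblasts and lymphatic vessels, rose from 99.3, 69.4 and 79.3 TPM to 170, 160 and 152 TPM (0.96, SE 0.13, adjusted p = 0.0353). No list of these genes was tested.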
